A study of Homo sapiens with 6 samples.

Results

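The genes described here are 50 components of the machinery that assembles actin filaments and moves leukocytes: the cytoplasmic actins, the Arp2/3 complex, its activators and antagonists, and the proteins that tie filaments to integrins, myosins and the membrane. They were taken by gene symbol from a list that was chosen with earlier results of these data known. All 50 were found in both deposited count tables, among 12301 genes that the tables share. The cells were NB4, an established human acute promyelocytic leukemia line that matures toward granulocytes when given all-trans retinoic acid (ATRA). They carried shRNA1 or shRNA2, which are hairpins that target SMARCD2, a BAF chromatin remodelling subunit, or a control construct. Each construct was treated with ATRA at 1 µM or with the vehicle DMSO, which gave 3 libraries per treatment: knockdown with hairpin 1, knockdown with hairpin 2, and control. How long the cells were treated is not stated in the labels. The labels also do not say whether libraries came from separate cultures, so p-values measure only the spread between these libraries, which may be technical.

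Leukocytes crawl by polymerizing actin at the leading edge. The Arp2/3 complex starts new filaments as branches on old ones once WASP or the WAVE complex switches it on, formins and Ena/VASP proteins lengthen filaments, cofilin and gelsolin family proteins cut them, and myosin II contracts the rear. Kindlin-3 and talin couple the filaments to the integrins by which neutrophils adhere, and inherited defects of WAS, CORO1A, DOCK2, FERMT3 or ARPC1B are known causes of human immune deficiency.

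Library totals ran from 44370146 to 51324652 counts with hairpins and 29521141 in the control in ATRA, and from 41846630 to 58099733 with hairpins and 29291209 in the control in DMSO. The lowest count of any of the 50 genes in any library was 442. SMARCD2 itself stood at 64.2 and 35.6 CPM (the count scaled to library size) with hairpins 1 and 2 and at 122 CPM in the control in ATRA, and at 39.0, 25.7 and 95.5 CPM in DMSO. Of 8 promyelocyte markers 7 were in both tables, with a summed level of 4943 to 6636 CPM in ATRA and 11220 to 11420 CPM in DMSO. MPO alone gave 4108 to 5549 CPM of that in ATRA and 10380 to 10470 CPM in DMSO, and PRTN3 and PML were higher in ATRA, PRTN3 at 222 to 396 CPM, against 39.0 to 79.0 CPM in DMSO. The 5 neutrophil maturation markers summed to 4478 to 4730 CPM in ATRA and 286 to 351 CPM in DMSO. Of 22 markers of cells that the culture should not hold, 10 were in neither table, all 3 erythroid markers among them. Those in a table summed to 99.5 to 108 CPM in ATRA and 76.9 to 79.5 CPM in DMSO, and their part in the results was not tested.

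The first question was how ATRA changed the machinery. Most of it rose together: 47 of 50 genes passed the test between 3 ATRA and 3 DMSO libraries (edgeR's quasi-likelihood test, Benjamini-Hochberg adjusted p under 0.05 over all genes), 41 of them higher in ATRA and 6 lower. Over all genes tested 74.0% passed, 36.2% higher and 37.8% lower, and the counts of the 50 are read against these shares. Because the 50 were chosen with earlier results of these data known, setting them against all genes is a description and not a test. Scaling by total counts gave 40 higher and 8 lower among the 50, and 3637 higher and 5722 lower among all genes, against 4450 and 4650 in the TMM-scaled fit. The median log2 fold change was 1.02 over the 50 genes and -0.01 over all genes. A rise of at least 2-fold that passed was seen in 26 of the 50, against 11.9% of all genes, and a fall of that size in 1, DIAPH1, against 9.28% of all genes. The 3 ATRA libraries were all above the 3 DMSO libraries for 41 genes (37.6% of all genes) and all below for 6 (39.5%), and the treatments overlapped for GSN, RHOA and MSN. In bulk libraries, more cells of a type and more RNA per cell cannot be told apart.

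**Figure D1:**
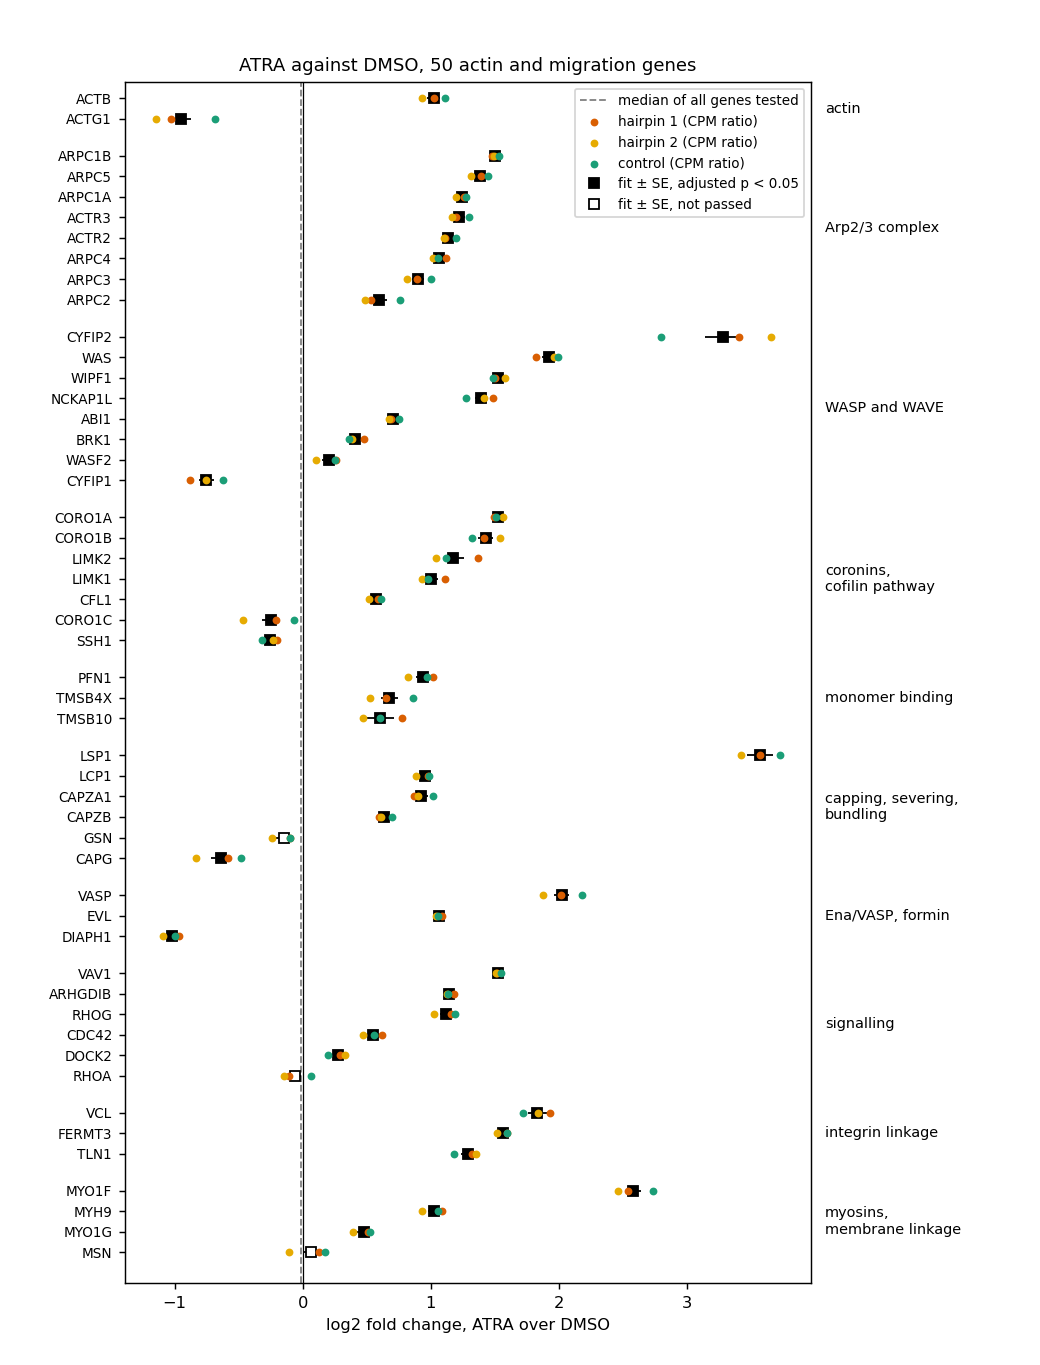
Log2 fold change of ATRA over DMSO for the 50 genes, grouped by role: squares with bars are the edgeR fit ± SE (filled where adjusted p was under 0.05), coloured points the CPM ratio within each construct, and the dashed line the median of all genes at -0.01. The points lie right of 0 for most genes, and CYFIP2, LSP1, MYO1F and VASP lie farthest out.

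The 50 genes took 3.22%, 3.21% and 3.18% of all counts with hairpin 1, hairpin 2 and the control in ATRA. In DMSO they took 1.94%, 2.03% and 1.83%. The larger share did not come from ACTB alone, since without it the shares were 2.53% to 2.57% in ATRA and 1.50% to 1.67% in DMSO. The 8 Arp2/3 genes among the 50 took 0.449% to 0.452% of counts in ATRA and 0.222% to 0.241% in DMSO.

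Promoter sequences were looked up for letters that could set the genes that rose apart from those that fell. RefSeq promoters of GRCh38.p14, from 250 bases before to 50 after each start, were at hand for 44 of the 50 genes, with 73 promoters. Those of ACTB, ARPC1B, WASF2, NCKAP1L, LSP1 and RHOG were not among them. The CArG box, the element bound by serum response factor in many actin genes, was searched on both strands and found in 2 of the 73 promoters (2.74%), those of ACTG1 and ARHGDIB, against 1.29% of all 35116 promoters. GAGGAAG, a string found in many binding sites of PU.1 and holding the GGAA core of ETS family sites, was searched on both strands and found in 19 of the 73 (26.0%), against 13.6% of all promoters. They belonged to 17 genes, 12 of the 35 with a promoter at hand that rose in ATRA, 3 of 6 that fell and 2 of 3 that did not pass. A match of letters is a description and not a site in use. Stretches of 5 promoters are shown, both genes with a CArG box (1 fell and 1 rose), 2 genes that rose with GAGGAAG and 1 that fell with it. Each is written 5′ to 3′ on the strand of its gene, with the matched letters in capitals.
ACTG1 (chr17:81512800-81513049, minus strand): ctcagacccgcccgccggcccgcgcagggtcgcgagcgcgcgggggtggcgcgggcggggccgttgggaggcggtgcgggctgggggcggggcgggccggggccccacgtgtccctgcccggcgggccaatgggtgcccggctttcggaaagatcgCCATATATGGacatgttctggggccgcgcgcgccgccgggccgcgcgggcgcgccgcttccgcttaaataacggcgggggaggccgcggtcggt
ARHGDIB (chr12:14948927-14949026, minus strand): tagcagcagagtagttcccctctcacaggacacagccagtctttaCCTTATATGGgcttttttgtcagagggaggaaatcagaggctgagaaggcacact
VAV1 (chr19:6772458-6772530, plus strand): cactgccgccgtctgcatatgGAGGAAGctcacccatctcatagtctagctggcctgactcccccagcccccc
WIPF1 (chr2:174634606-174634663, minus strand): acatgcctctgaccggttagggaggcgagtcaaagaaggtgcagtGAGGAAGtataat
CYFIP1 (chr15:22980387-22980483, minus strand): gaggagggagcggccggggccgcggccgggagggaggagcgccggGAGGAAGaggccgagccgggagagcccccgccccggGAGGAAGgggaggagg
The match begins 94 bases before the start of ACTG1, 85 before that of ARHGDIB, 229 before that of VAV1 and 13 before that of WIPF1, and CYFIP1 holds 2 matches, of which the first begins 70 bases before its start.

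In the rest of the account, CPM values are given in the order hairpin 1, hairpin 2, control. Means are ± SD over the 3 libraries of a treatment, log2 fold changes are of ATRA over DMSO ± SE, and adjusted p-values are edgeR's unless another tool is named. How reads were assigned to near-identical copies and whether strand was used is not stated. ACTB, ACTG1, TMSB4X, TMSB10, CFL1, PFN1, ARPC3 and MSN have processed pseudogenes or close paralogs, and their levels are uncertain to that extent.

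The 2 cytoplasmic actins, near-identical proteins that form most filaments of a leukocyte, moved in opposite directions. ACTB, beta-actin, had 6892, 6618 and 6804 CPM in ATRA, against 3383, 3464 and 3153 CPM in DMSO. Every ATRA library was far above every DMSO library, with means of 6772 ± 140 and 3333 ± 161 CPM and a log2 fold change of 1.02 ± 0.05 (edgeR adjusted p = 2.9e-07). ACTG1, gamma-actin, whose promoter with a CArG box is printed above, had 1241, 1141 and 1328 CPM in ATRA, against 2533, 2527 and 2135 CPM in DMSO. It fell in all 3 constructs, by a log2 fold change of -0.95 ± 0.08 (edgeR adjusted p = 1e-05). ACTB counts were thus 5.55, 5.80 and 5.12 times those of ACTG1 in ATRA, against 1.34, 1.37 and 1.48 times in DMSO. The sum of both actins was 8134, 7760 and 8132 CPM in ATRA and 5916, 5991 and 5288 CPM in DMSO, with no overlap.

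The 8 chosen genes of the Arp2/3 complex, the branching nucleator, all rose. Their log2 fold changes were 0.59 to 1.50, with a median of 1.18. ARPC1B, the variant of the p41 subunit that predominates in blood cells, led with 722, 768 and 680 CPM in ATRA, against 259, 272 and 235 CPM in DMSO. The lowest ATRA library was far above the highest DMSO library, and the log2 fold change was 1.50 ± 0.05 (edgeR adjusted p = 2.6e-08). Its paralog ARPC1A, the more widely expressed variant, had 238, 249 and 233 CPM in ATRA, against 99.6, 108 and 96.0 CPM in DMSO. It rose by a log2 fold change of 1.24 ± 0.05, so that ARPC1B counts relative to ARPC1A moved by 0.26 on the log2 scale. ARPC5, the p16 subunit, had 243, 238 and 239 CPM in ATRA, against 92.5, 95.5 and 87.5 CPM in DMSO. The libraries of each treatment lay within a few CPM of each other, and the log2 fold change was 1.39 ± 0.04 (edgeR adjusted p = 2.9e-08).

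ACTR3 and ACTR2, the actin-related proteins that form the first subunits of the new branch, kept pace with each other. ACTR3 had 642, 617 and 636 CPM in ATRA, against 280, 275 and 259 CPM in DMSO. ACTR2 had 1487, 1390 and 1454 CPM in ATRA, against 687, 647 and 634 CPM in DMSO. No library of either treatment overlapped with the other, and the log2 fold changes were 1.22 ± 0.05 for ACTR3 and 1.14 ± 0.05 for ACTR2. ARPC4, a core scaffold subunit, had 162, 157 and 153 CPM in ATRA, against 74.5, 77.2 and 73.4 CPM in DMSO, a log2 fold change of 1.07 ± 0.04. The smallest rises of the chosen Arp2/3 genes were those of ARPC3 at 0.90 ± 0.05 and of the scaffold subunit ARPC2 at 0.59 ± 0.06 (edgeR adjusted p = 2.9e-05). The related genes ACTR3B and ARPC5L, from the list of other actin assembly genes, did not rise. ACTR3B fell to 26.3 ± 0.61 CPM in ATRA, against 35.9 ± 2.58 CPM in DMSO (-0.44 ± 0.06, edgeR adjusted p = 2.8e-04). ARPC5L had 41.3 ± 3.85 CPM in ATRA and 44.5 ± 1.41 CPM in DMSO, and did not pass (-0.11 ± 0.06, edgeR adjusted p = 0.098).

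Among the 8 chosen genes of WASP and of the WAVE complex, which activate Arp2/3, 7 rose and 1 fell. WAS, the haematopoietic WASP mutated in Wiskott-Aldrich syndrome, had 136, 137 and 146 CPM in ATRA, against 38.4, 35.1 and 36.6 CPM in DMSO. The treatments were far apart and the log2 fold change was 1.93 ± 0.05 (edgeR adjusted p = 1.3e-08). WIPF1, the partner that stabilizes WASP, had 694, 754 and 660 CPM in ATRA, against 244, 252 and 235 CPM in DMSO, a log2 fold change of 1.53 ± 0.05. NCKAP1L (HEM1), the blood-cell scaffold of the WAVE complex, had 435, 427 and 395 CPM in ATRA, against 155, 160 and 163 CPM in DMSO, a log2 fold change of 1.40 ± 0.05. The other WAVE subunits changed less: ABI1 by 0.70 ± 0.04, BRK1 by 0.41 ± 0.05 and WASF2, the WAVE2 protein that contacts Arp2/3, by 0.20 ± 0.05 (edgeR adjusted p = 0.0069). With scaling by total counts WASF2 did not pass (0.07, edgeR adjusted p = 0.24).

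The subunit of the WAVE complex that binds Rac exists as the paralogs CYFIP2 and CYFIP1, and they moved in opposite directions. CYFIP2 had 131, 128 and 127 CPM in ATRA, against 12.3, 10.1 and 18.2 CPM in DMSO. Means of 129 ± 2.22 and 13.5 ± 4.22 CPM gave a log2 fold change of 3.29 ± 0.14 (edgeR adjusted p = 1.6e-07). Within constructs the log2 ratio was 3.41 with hairpin 1, 3.66 with hairpin 2 and 2.80 in the control. CYFIP1, with 2 GAGGAAG matches in the promoter stretch printed above, had 56.7, 56.7 and 62.2 CPM in ATRA, against 104, 95.6 and 95.7 CPM in DMSO. It fell in every construct, with a log2 fold change of -0.76 ± 0.06 (edgeR adjusted p = 5.5e-06). CYFIP2 counts were 2.32, 2.25 and 2.05 times those of CYFIP1 in ATRA, against 0.118, 0.105 and 0.191 times in DMSO, a shift of 4.04 on the log2 scale.

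**Figure D2:**
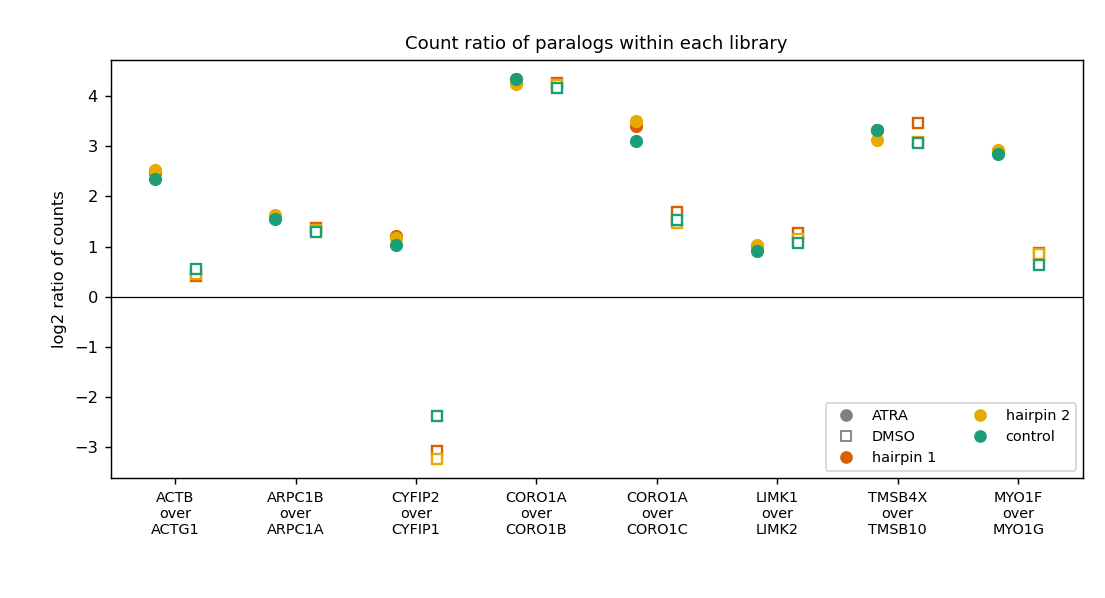
Log2 ratio of counts of 8 paralog pairs within each library, ATRA as filled circles and DMSO as open squares. The ratio crossed 0 for CYFIP2 over CYFIP1 in all 3 constructs, shifted upward in ATRA by 1.98 for ACTB over ACTG1, 2.10 for MYO1F over MYO1G and 1.77 for CORO1A over CORO1C, and moved by at most 0.26 for the other 4 pairs.

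Coronins, which protect or dismantle branches, were split by member. CORO1A, the leukocyte coronin, had 1526, 1532 and 1414 CPM in ATRA, against 542, 517 and 496 CPM in DMSO, a log2 fold change of 1.52 ± 0.04 (edgeR adjusted p = 1.7e-08). CORO1B had 74.9, 80.8 and 69.4 CPM in ATRA, against 28.1, 27.8 and 27.8 CPM in DMSO, a log2 fold change of 1.43 ± 0.06. Both rose in every construct, while the widely expressed CORO1C fell. CORO1C had 145, 135 and 163 CPM in ATRA, against 167, 186 and 171 CPM in DMSO. The treatments did not overlap but the gap was small, and it differed by construct: the log2 fold change was -0.25 ± 0.07 (edgeR adjusted p = 0.011).

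In the cofilin pathway, the severing protein CFL1 and both kinases that switch it off rose, and SSH1, a phosphatase that switches it on, fell. LIMK1 had 74.8, 72.2 and 72.0 CPM in ATRA, against 34.6, 37.9 and 36.6 CPM in DMSO, a log2 fold change of 1.01 ± 0.05. LIMK2 had 37.1, 35.4 and 38.1 CPM in ATRA, against 14.4, 17.2 and 17.5 CPM in DMSO, a log2 fold change of 1.18 ± 0.08 (edgeR adjusted p = 2.3e-06). Neither kinase had an overlapping library. CFL1 averaged 509 ± 3.85 CPM in ATRA and 342 ± 14.8 CPM in DMSO, a log2 fold change of 0.57 ± 0.04. SSH1, a slingshot phosphatase, averaged 73.5 ± 1.54 CPM in ATRA and 87.7 ± 5.32 CPM in DMSO, a log2 fold change of -0.25 ± 0.05 (edgeR adjusted p = 0.0016). Its paralog SSH2, from the list of other actin assembly genes, rose to 106 ± 3.04 CPM in ATRA, against 68.1 ± 4.33 CPM in DMSO, a log2 fold change of 0.63 ± 0.05 (edgeR adjusted p = 9.4e-06).

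The 3 genes for proteins that bind actin monomers all rose. PFN1, profilin, which feeds monomers to growing ends, had 566, 523 and 604 CPM in ATRA, against 279, 295 and 308 CPM in DMSO, a log2 fold change of 0.94 ± 0.05 (edgeR adjusted p = 5e-07). TMSB4X, thymosin beta 4, which holds monomers in reserve, had 2896, 2780 and 2676 CPM in ATRA, against 1845, 1935 and 1475 CPM in DMSO. The lowest value was that of the control in DMSO, and the log2 fold change was 0.68 ± 0.06. TMSB10, its paralog, averaged 290 ± 25.7 CPM in ATRA and 191 ± 33.3 CPM in DMSO, and its rise of 0.61 ± 0.10 was the least precise of the 3 (edgeR adjusted p = 7.0e-04).

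Among capping, severing and bundling proteins, 4 rose, 1 fell and 1 did not pass. LSP1, leukocyte-specific protein 1, a filament-binding protein of neutrophils, had 580, 656 and 528 CPM in ATRA, against 48.6, 60.9 and 39.8 CPM in DMSO. Hairpin 2 was highest and the control lowest in both treatments. The fold was 11.9 and the log2 fold change 3.57 ± 0.10, the highest of the 50 genes (edgeR adjusted p = 1.5e-08). LCP1, the bundler L-plastin, averaged 1445 ± 70.2 CPM in ATRA and 746 ± 6.81 CPM in DMSO, a log2 fold change of 0.95 ± 0.05. The capping protein subunits CAPZA1 and CAPZB rose by 0.93 ± 0.05 and 0.63 ± 0.04. Of the 2 gelsolin family genes among the 50, CAPG fell and GSN did not pass. Of family members outside the 50, SVIL rose by 0.87 ± 0.05 and AVIL did not pass (-0.07 ± 0.09, edgeR adjusted p = 0.47). CAPG had 109, 109 and 112 CPM in ATRA, against 164, 195 and 156 CPM in DMSO, a log2 fold change of -0.64 ± 0.07 (edgeR adjusted p = 7e-05). GSN, gelsolin, had 257, 281 and 232 CPM in ATRA, against 275, 332 and 248 CPM in DMSO, overlapping ranges with a log2 fold change of -0.15 ± 0.07 (edgeR adjusted p = 0.096). A fit with a hairpin term called GSN lower (edgeR adjusted p = 0.025) and so 48 of the 50, against 74.2% of all genes.

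Of the 3 elongation factors among the 50 genes, the Ena/VASP proteins VASP and EVL rose and the formin DIAPH1 fell. VASP had 153, 150 and 154 CPM in ATRA, against 37.8, 40.7 and 34.1 CPM in DMSO, a log2 fold change of 2.02 ± 0.06 (edgeR adjusted p = 2.2e-08). EVL had 227, 215 and 228 CPM in ATRA, against 107, 104 and 109 CPM in DMSO, a log2 fold change of 1.06 ± 0.04. DIAPH1 (mDia1), a formin that makes unbranched filaments, had 227, 231 and 223 CPM in ATRA, against 444, 492 and 446 CPM in DMSO. All 3 constructs fell by a like amount, with a log2 fold change of -1.02 ± 0.05 (edgeR adjusted p = 3.6e-07). Relatives outside the 50 genes did not all move with them: the Ena/VASP protein ENAH fell to 20.4 ± 2.02 CPM in ATRA, against 40.7 ± 2.57 CPM in DMSO. The formins FMNL1, FMNL3 and DIAPH2 rose, with log2 fold changes of 0.35 ± 0.07, 0.79 ± 0.05 and 0.17 ± 0.06. FMNL2, DAAM1 and INF2 fell, with -0.30 ± 0.08, -0.71 ± 0.14 and -3.01 ± 0.07, and DIAPH3 did not pass (-0.14 ± 0.06, edgeR adjusted p = 0.073).

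Of 6 genes that carry signals to the filaments, 5 rose and RHOA did not pass. VAV1, the blood-cell exchange factor for Rac, had 147 CPM in each ATRA library, against 51.3, 51.5 and 50.3 CPM in DMSO. The constructs were nearly identical and the log2 fold change was 1.52 ± 0.04 (edgeR adjusted p = 1.3e-08). ARHGDIB, the other gene with a CArG box, had 601, 614 and 581 CPM in ATRA, against 265, 281 and 265 CPM in DMSO, a log2 fold change of 1.15 ± 0.04. RHOG, a GTPase upstream of Rac, had 132, 128 and 125 CPM in ATRA, against 58.9, 62.8 and 54.9 CPM in DMSO, a log2 fold change of 1.12 ± 0.05. Smaller rises were measured for CDC42, which activates WASP, at 0.55 ± 0.05, and for the Rac exchange factor DOCK2 at 0.28 ± 0.05 (edgeR adjusted p = 5.8e-04). RHOA, the GTPase of rear contraction, had 455, 432 and 486 CPM in ATRA, against 491, 477 and 465 CPM in DMSO. Its ranges overlapped, with a log2 fold change of -0.06 ± 0.05 (edgeR adjusted p = 0.31).

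The 3 genes that link actin to integrins rose, with a median log2 fold change of 1.57. VCL, vinculin, had 198, 218 and 178 CPM in ATRA, against 51.9, 60.8 and 54.2 CPM in DMSO, a log2 fold change of 1.83 ± 0.07 (edgeR adjusted p = 1e-07). FERMT3, kindlin-3, had 413, 428 and 415 CPM in ATRA, against 137, 149 and 137 CPM in DMSO, a log2 fold change of 1.57 ± 0.05. TLN1, talin, which switches integrins on together with kindlin, had 469, 478 and 440 CPM in ATRA, against 187, 187 and 194 CPM in DMSO, a log2 fold change of 1.29 ± 0.05. No library of one treatment reached the other for any of the 3.

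Of the myosins and the membrane linker, 3 rose and MSN did not pass. MYO1F, a class I myosin of leukocytes that ties filaments to membranes, had 3485, 3560 and 3416 CPM in ATRA, against 599, 645 and 512 CPM in DMSO. Its fold was 5.98 and its log2 fold change 2.58 ± 0.06 (edgeR adjusted p = 8.7e-09). MYO1G, another class I myosin of blood cells, rose by only 0.48 ± 0.05. MYH9, the heavy chain of non-muscle myosin II, had 1760, 1707 and 1634 CPM in ATRA, against 828, 894 and 787 CPM in DMSO, a log2 fold change of 1.02 ± 0.05. MSN, moesin, which anchors cortical actin to the membrane, had 734, 680 and 773 CPM in ATRA, against 670, 733 and 685 CPM in DMSO. The ranges overlapped and the log2 fold change was 0.07 ± 0.06 (edgeR adjusted p = 0.34). Its sign turned, to -0.065, when libraries were scaled by total counts (edgeR adjusted p = 0.33).

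**Figure D3:**
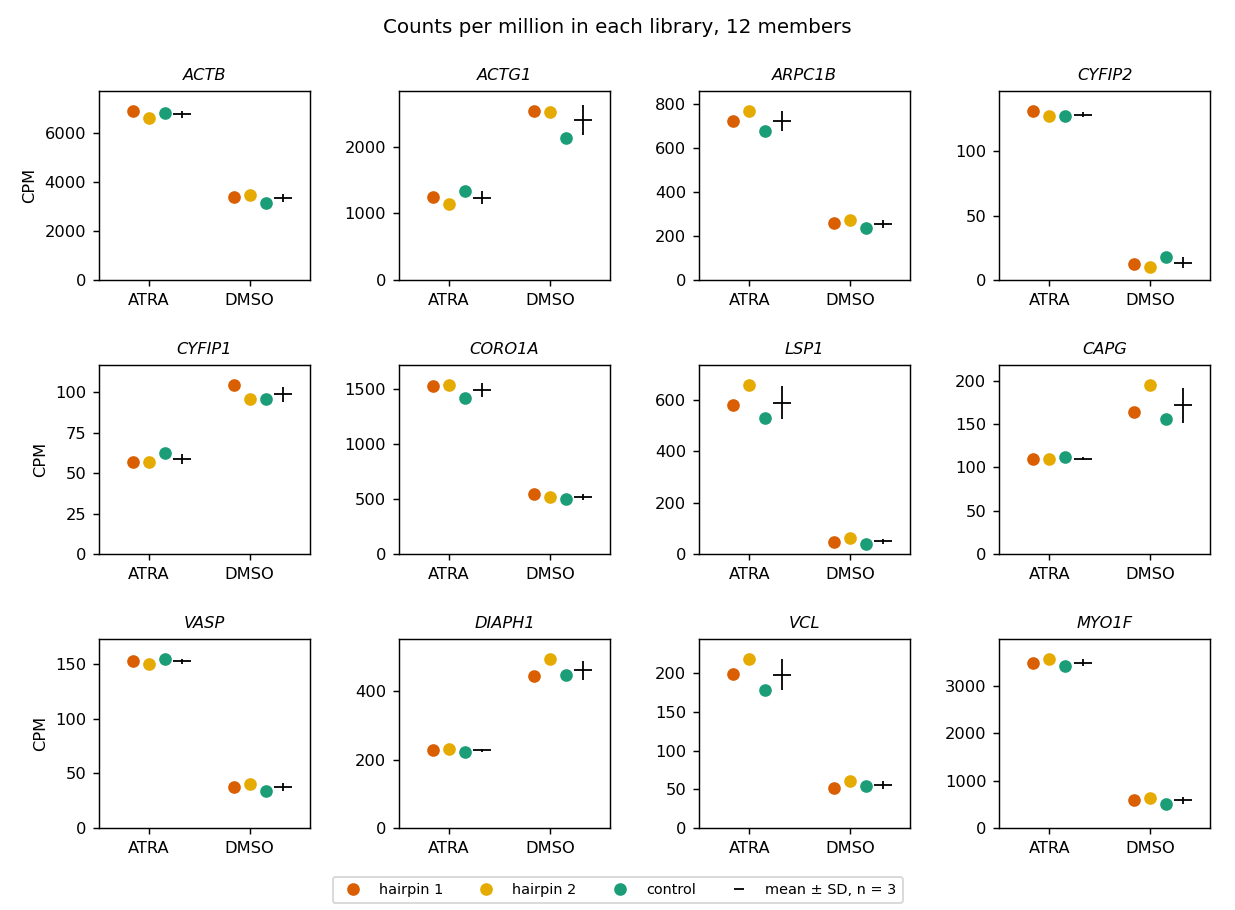
CPM of 12 of the genes in each library, ATRA left and DMSO right, points coloured by construct with the mean ± SD (n = 3) beside them and each axis starting at 0. The treatments are separated for all 12 genes, with ACTG1, CYFIP1, CAPG and DIAPH1 lower in ATRA, and CYFIP2, LSP1, VASP and MYO1F near the bottom of their panels in DMSO.

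Other genes of the same pathways did not all follow. In the list of other actin assembly genes 24 of 51 tested rose and 18 fell, with a median log2 fold change of 0.10, against 36.2% and 37.8% of all genes. COTL1, a coactosin-like filament-binding protein, rose to 665 ± 10.4 CPM in ATRA, against 62.4 ± 6.37 CPM in DMSO (3.41 ± 0.08), and ABI3 and DBNL rose by 1.93 ± 0.15 and 1.58 ± 0.06. FSCN1, the bundler fascin, fell to 159 ± 13.6 CPM in ATRA, against 805 ± 59.7 CPM in DMSO (-2.34 ± 0.07). CTTN, cortactin, which stabilizes branches, fell to 2.74 ± 1.00 CPM in ATRA, against 28.0 ± 2.86 CPM in DMSO (-3.38 ± 0.23). HCLS1, the blood-cell relative of cortactin, rose to 406 ± 30.1 CPM in ATRA, against 142 ± 4.82 CPM in DMSO (1.51 ± 0.05). The formin INF2 fell to 11.2 CPM in ATRA, against 90.3 CPM in DMSO (-3.01 ± 0.07). MARCKS was listed in the ATRA table alone, at 21.8 to 47.5 CPM of the table total, so that no fold change can be given.

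In the list of other adhesion linkers, myosins and membrane linkers 13 of 26 rose and 10 fell, against 36.2% and 37.8% of all genes, with a median of 0.31. PXN, paxillin, rose to 186 ± 21.6 CPM in ATRA, against 14.2 ± 0.617 CPM in DMSO (3.72 ± 0.08), and the talin recruiters APBB1IP (RIAM) and RAP1A rose by 2.68 ± 0.13 and 1.45 ± 0.08. MYO1C, TLN2 and FERMT1 fell, by -2.07 ± 0.22, -1.62 ± 0.22 and -1.25 ± 0.10, while the members of the same families MYO1F, TLN1 and FERMT3 rose. The genes that fell had low mean levels in both treatments. MYO1C had 1.67 CPM in ATRA and 7.02 CPM in DMSO, TLN2 1.05 and 3.21 CPM, and FERMT1 7.71 and 18.3 CPM. Every gene given a fold change here passed the edgeR test.

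**Figure D4:**
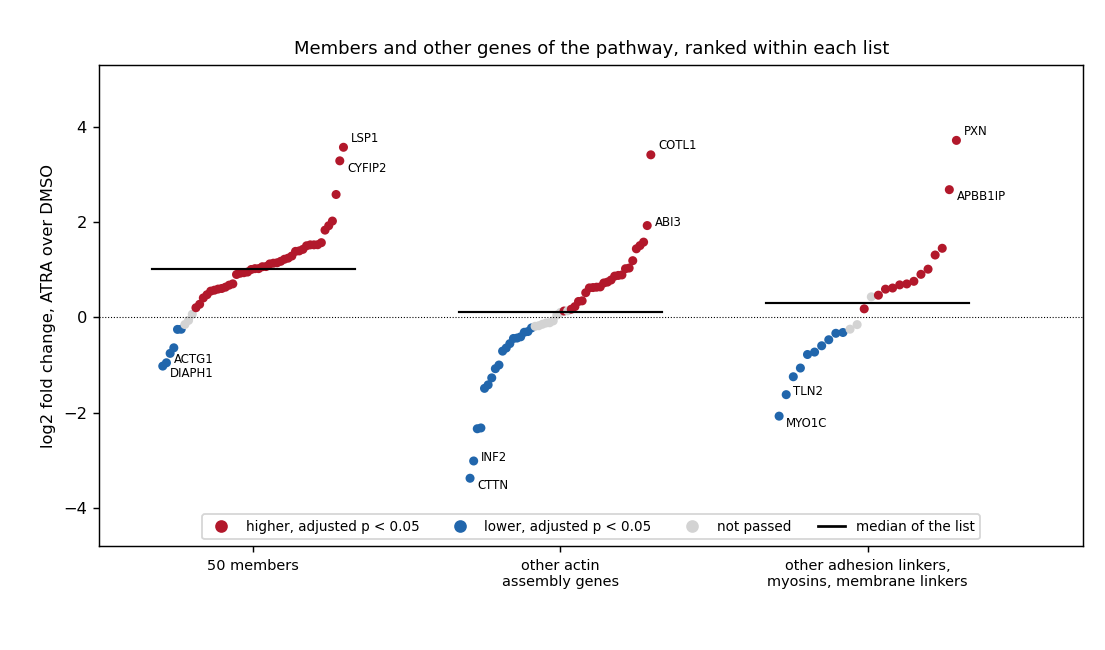
Log2 fold change of ATRA over DMSO of each gene, ranked within the 50 genes and the 2 lists of other pathway genes, coloured by the edgeR call, with the median of each list as a bar. The 50 genes have the highest median (1.02), and the changes in the other lists reach from -3.38 for CTTN to 3.72 for PXN. The lists were chosen with earlier results of these data known.

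The second question was whether knockdown of SMARCD2 changed the machinery. In DMSO, 0 of 50 genes passed (0% of all 12301), while 10 reached an unadjusted p under 0.05 (7.06% of all genes): 8 higher and 2 lower. Fitted log2 fold changes were small, from -0.70 to 0.46 with a median of 0.06, and 40 of 50 were positive, against 6195 of 12301. Both hairpins were above the control for 28 of the 50 (56.0%) and both below for 9 (18.0%), against 35.0% and 34.9% of all genes. The hairpins share their lone control library, whose value enters every such count. DESeq2 called 2 genes (0.309% of all), CYFIP2 lower and TMSB4X higher, and limma called 0. SMARCD2 itself did not pass, with log2 fold changes of -1.55 in DMSO (edgeR adjusted p = 0.39) and -1.29 in ATRA (edgeR adjusted p = 0.32). A gene that did not pass can thus still differ by a large amount.

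CYFIP2 had the largest difference, 12.3 and 10.1 CPM with hairpins 1 and 2 and 18.2 CPM in the control in DMSO. Both hairpins were lower, by log2 ratios of -0.57 and -0.86, and the fitted change was -0.70 ± 0.12 (edgeR adjusted p = 0.30). In the fit with a hairpin term it passed (edgeR adjusted p = 0.0022). Without hairpin 1 in DMSO the value was -0.84 (edgeR adjusted p = 0.042, the 1 gene of the 50 called there, against 0.171% of all genes), but this sets 1 knockdown library against 1 control library, with the spread taken from the hairpins in ATRA. Run 1 and run 2 were mixed differently in control and knockdown libraries, and gave -0.81 and -0.49 on their own. LSP1 had 48.6 and 60.9 CPM with the hairpins and 39.8 CPM in the control in DMSO, a change of 0.46 ± 0.14 (edgeR adjusted p = 0.62), which was 0.30 without hairpin 2. TMSB4X had 1845 and 1935 CPM with the hairpins and 1475 CPM in the control, a change of 0.36 ± 0.07 (edgeR adjusted p = 0.36). In the fit with a hairpin term 5 genes passed (0.943% of all genes), of which ACTG1, LSP1, MYO1F and TMSB4X were higher in knockdown and CYFIP2 lower. That fit takes the hairpin difference out of its error, so its p-values can be too small for a difference between constructs. In the authors' deposited table, 2 of the 50 had an adjusted p under 0.05 in DMSO (1.27% of genes with an adjusted p), CYFIP2 (log2 fold change -0.41, adjusted p = 0.0027) and TMSB4X (0.26, adjusted p = 0.017).

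In ATRA, 0 of 50 passed (0.00813% of all genes), and none with limma, DESeq2 (0.423% of all genes) or a hairpin term (2.83%), while 1 had an unadjusted p under 0.05 (10.8% of all genes). LSP1, CORO1C and VCL had the largest changes shared in sign by both hairpins, and CORO1C was the gene with an unadjusted p under 0.05. It had 145 and 135 CPM with hairpins 1 and 2 and 163 CPM in the control, a change of -0.22 ± 0.08 (edgeR adjusted p = 0.42). LSP1 had 580 and 656 CPM with the hairpins and 528 CPM in the control, a change of 0.23 ± 0.13 (edgeR adjusted p = 0.56). VCL had 198 and 218 CPM with the hairpins and 178 CPM in the control, a change of 0.22 ± 0.10 (edgeR adjusted p = 0.48). In the authors' deposited table, VCL was the 1 gene of the 50 with an adjusted p under 0.05 in ATRA (4.42% of genes with an adjusted p), with a log2 fold change of 0.22 and an adjusted p of 0.035. The median over the 50 was 0.01, and both hairpins were above the control for 23 genes (46.0%) and below for 20 (40.0%), against 39.2% and 37.4% of all genes. CYFIP2 had 131 and 128 CPM with the hairpins and 127 CPM in the control under ATRA.

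**Figure D5:**
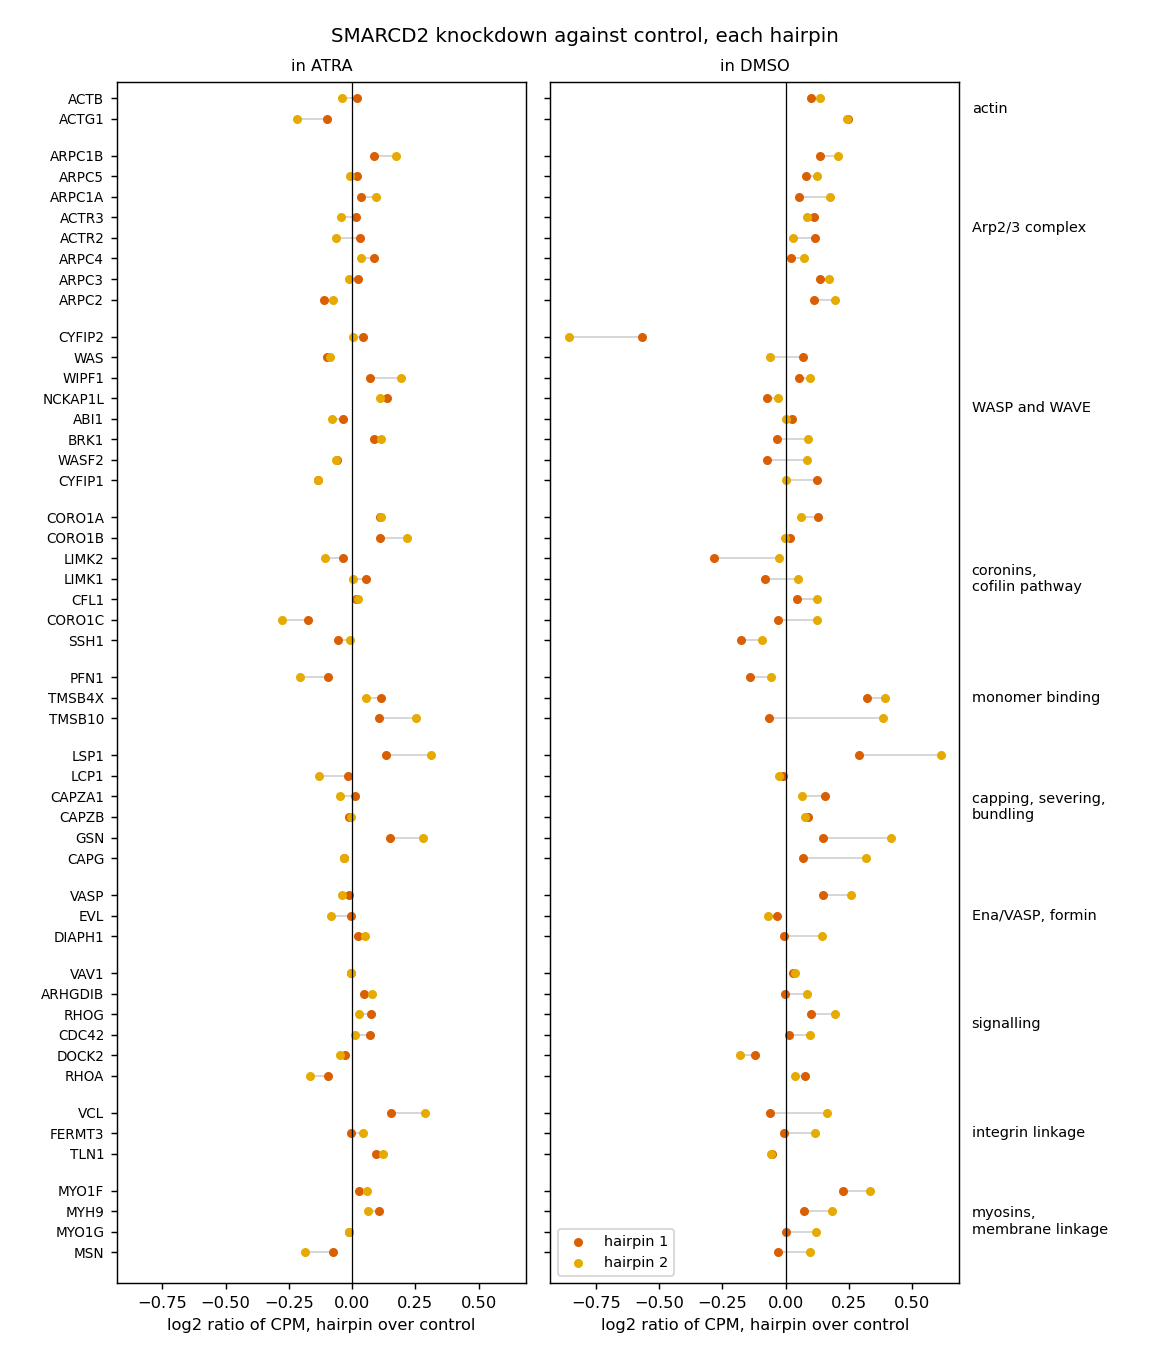
Log2 ratio of CPM of each hairpin over the control in ATRA (left) and DMSO (right) for the 50 genes in the same order. Points of both hairpins lie between -0.28 and 0.31 in ATRA, and in DMSO CYFIP2 lies far to the left and LSP1 farthest to the right.

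The difference in ATRA response between knockdown and control was tested as an interaction. None of the 50 genes passed (0 of 50, against 0.0488% of all genes), 5 had an unadjusted p under 0.05 (7.96%), and limma called 0. The knockdown minus control difference in log2 response was 0.72 ± 0.16 for CYFIP2 (edgeR adjusted p = 0.34) and -0.40 ± 0.10 for ACTG1 (edgeR adjusted p = 0.42). Both passed with DESeq2 (0.390% of all genes) and in the fit with a hairpin term (1.05%), where the edgeR adjusted p was 0.010 for CYFIP2 and 0.0095 for ACTG1. For ACTG1 the log2 ratio of ATRA over DMSO was -1.03 and -1.15 with hairpins 1 and 2 and -0.68 in the control. Over both treatments together, 0 of 50 passed (0%) and 6 had an unadjusted p under 0.05 (8.15%), with LSP1 the largest at 0.33 ± 0.10 (edgeR adjusted p = 0.52) among 5 higher, and PFN1 the 1 that was lower.

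Hairpin 2 and hairpin 1 were also compared with each other, over both treatments. None of the 50 passed (0%), and 4 had an unadjusted p under 0.05 (6.67% of all genes), all higher with hairpin 2: TMSB10, LSP1, GSN and VCL. TMSB10 had 318 and 229 CPM with hairpin 2 in ATRA and in DMSO, against 287 and 168 CPM with hairpin 1, a log2 fold change of 0.30 ± 0.08 (edgeR adjusted p = 0.40). LSP1 differed by 0.25 ± 0.08 (edgeR adjusted p = 0.55). When the 4 knockdown libraries were fitted alone, TMSB10 and LSP1 passed (2.03% of all genes did). SMARCD2 was itself lower with hairpin 2 in both treatments, and whether the depth of knockdown bears on these genes was not tested.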

How the data were processed

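The data were gene counts from RNA-seq of 6 NB4 libraries: hairpin 1, hairpin 2 and a control construct, each in ATRA and in DMSO. The authors deposited 1 table per treatment with raw counts per gene in whole numbers, 2 columns per library that were taken as sequencing runs and summed. The deposited tables carry, per the file headers, a log2 fold change, a p-value and its adjusted value from the authors' own test of knockdown, and that test may have taken runs as replicates. The 12 normalized columns were not used. The tools named in the submitters' processing notes are STAR, Picard 2.5.0, bcl2fastq and DESeq2, and the build is GRCh37.p13. The rule for assigning reads to genes and any use of strand are not stated there. No coordinates of the count tables are given, and promoter sequences are RefSeq's on GRCh38.p14. The tables leave out genes with few counts.

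Counts of the 12301 shared genes were filtered with filterByExpr, scaled with TMM on full table totals and tested with edgeR 4.0.16 (glmQLFit, glmQLFTest; R 4.3.3), with Benjamini-Hochberg adjustment over all of them and a threshold of 0.05. ATRA against DMSO was fitted with knockdown state as a term (3 residual degrees of freedom). Knockdown in each treatment and the interaction came from a 4-group fit (2 residual degrees of freedom, from the spread between hairpins, with the lone controls assumed to vary like the knockdown libraries), and hairpin 2 against hairpin 1 from a fit with treatment and construct. The standard error is |log2 fold change| over the square root of F. CPM values use TMM-scaled library sizes; marker sums and shares use table totals. Run 1 gave 53.1% and 54.7% of the control libraries in ATRA and DMSO, but 70.6% to 80.7% of the knockdown libraries.

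The 50 genes, the role groups, the lists of other pathway genes and the tests were chosen with earlier results of these data known. Values in every library were given for the largest change per role, for changes of at least 2-fold, and for the 3 largest same-sign knockdown changes per treatment. Those of genes that fell or did not pass were added after their values were seen. Relatives outside the 50 were also added then (SSH2, SVIL, ENAH, FMNL1, FMNL2, FMNL3, DIAPH2, DAAM1). So were WASF1, WASF3, ABI2, ACTR3B, ARPC5L, CORO2A, CORO7, HCLS1, AVIL, DIAPH3, EZR, RDX and MYH10. In the lists reported here, older symbols were matched for 2 genes. A list of other regulators is not reported here. Alternatives were DESeq2 1.42.0 and its size factors, limma 3.58.1 (voom), total counts, other filters, single runs, each table alone, the hairpin as a block, and leaving out each library. The titles give the same hairpin in both treatments; deviations of a construct in ATRA and in DMSO from their treatment means correlated across 9467 genes with r = 0.18 for hairpin 1, 0.21 for hairpin 2 and 0.08 for the control. Library totals are given with the results.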

Additional observations from a re-analysis of the deposited data

How the results depend on the processing

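Of the 50 genes, 47 passed for ATRA against DMSO under every alternative with 3 exceptions. With total counts 48 passed, 40 higher and 8 lower (WASF2 was lost at 0.07, adjusted p = 0.24; RHOA at -0.19 and GSN at -0.28 were gained, and MSN turned to -0.065). The all-gene median was then -0.14, against -0.01 with TMM, and all genes split into 3637 higher and 5722 lower, against 4450 and 4650. With the hairpin as a replicate block, and without hairpin 1 in DMSO, 48 passed, GSN being added (-0.15 and -0.21). Knockdown in DMSO gave 0 genes, but 2 with DESeq2, 5 with the replicate block and 0 to 1 when a library was left out (CYFIP2 without hairpin 1 in DMSO, where the lone knockdown library is assumed to vary like the others). The interaction gave 0, but 2 with DESeq2 and 2 with the replicate block. Hairpin 2 against hairpin 1 gave 0, but 2 in the 4 knockdown libraries and 0 to 2 when a library was left out (2 without either control). The cause of these changes was not tested. The block changed no other call. Over all genes, knockdown calls in DMSO numbered 0 with edgeR, 38 with DESeq2, 116 with the block and 21 without hairpin 1; in ATRA 1, 52 with DESeq2 and 348 with the block; for the interaction 6, 48 with DESeq2, 2 with limma and 129 with the block; for both treatments 0, 48 with DESeq2 and 10 with the block; and between hairpins 0, 44 with DESeq2, 20 with limma and 250 in the 4 libraries.

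Leaving out a control makes knockdown in that treatment and the interaction impossible to estimate. With 1 control per treatment, the spread of controls was not measured and was assumed to be like that between hairpins. Differences of the size seen for most of the 50 genes in knockdown did not stand out from that spread, and the test cannot say that they are absent. The lowest count behind any value of the 50 genes was 442.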
